A study of Mus musculus with 6 samples.

Results

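Oxidative phosphorylation is the mitochondrial process that makes most of a resting cell's ATP. The genes described here encode the nuclear subunits of its 5 complexes and cytochrome c. They were chosen by symbol, as all genes whose names begin with Ndufa, Ndufb, Ndufc, Ndufs, Ndufv, Uqcr or Atp5, or with Cox4 to Cox8, together with Sdha to Sdhd and Cycs. Assembly factors of the Ndufaf series, Cox6a2 and pseudogenes were left out, and the symbol rule does not take in Cyc1, the cytochrome c1 subunit of complex III. The rule found 79 of 12394 genes measured, 34 of complex I, 4 of complex II, 8 of complex III, 15 of complex IV, 17 of complex V and cytochrome c, and it used no measured value. Conventional dendritic cells (DCs), the antigen-presenting cells sorted here by the surface integrin CD11c, came from the spleens or the lymph nodes of BALB/c mice, an inbred strain, with no treatment or engineered allele given. Age, sex and the number of animals behind each RNA sample are not given in the sources used here. Their total RNA was measured on 6 Affymetrix arrays, 3 from spleen and 3 from lymph node. The labels number the arrays but do not tie them to animals, so each p-value rests on array-to-array spread that may be technical.

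In the inner mitochondrial membrane, complex I takes electrons from NADH and complex II from succinate, and both hand them to ubiquinone. Complex III passes them to cytochrome c and complex IV from there to oxygen, while complexes I, III and IV pump protons. Complex V, the ATP synthase, lets the protons flow back and makes ATP. In DCs the balance between this route and glycolysis is known to shift on activation, when cells lean on glycolysis and resting cells on respiration.

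Several facts of the whole set of arrays bear on every difference below. Ccl22, Ccr7 and Fscn1, textbook genes of DCs that migrate into lymph nodes, were higher in the arrays labelled spleen, which goes against the labels. Ccl22 was at 9.34 ± 0.07 in spleen and 4.37 ± 0.28 in lymph node (SD, n = 3 each, limma adjusted p = 7.92e-05), and the differences of Ccr7 and Fscn1 were 1.47 and 1.82 (adjusted p = 0.0496 and 0.00946). Of the 9 migratory DC markers measured 6 were called higher and none lower, while Cd83 and Relb had differences of -0.46 and -0.40 and Il4i1 0.31, none of them called. "Spleen" and "lymph node" below therefore mean arrays so labelled, and each difference is spleen minus lymph node on the log2 intensity scale. The summed intensity of 9 conventional DC markers was 14792 to 22528 in spleen and 26379 to 28438 in lymph node, and all 9 markers had lower values in every spleen array. For 12 plasmacytoid DC markers, Cox6a2 among them, the sum was 1778 to 5759 in spleen and 1009 to 1447 in lymph node. Of these 12 genes 8 lay above 0 and 4 below, from -0.42 to 4.06, and 3 were called higher. Of the 9 conventional DC markers 2 were called lower. The bacterial poly-A control probe sets had a mean log2 intensity of 8.41 to 9.06 in spleen and 7.39 to 7.96 in lymph node. The 3′ over 5′ log2 difference of the Gapdh control also separated the groups, at 3.14 to 3.44 in spleen and 2.60 to 2.79 in lymph node. That of the actin control did not, at -0.33 to -0.18 in spleen and -0.35 to -0.17 in lymph node. Among markers of other cells, 1 of 10 T cell, 1 of 7 plasma cell and 1 of 12 macrophage genes were called higher, and 2 of 9 B cell, 1 of 6 monocyte and 1 of 10 neutrophil genes lower. The called macrophage gene went against most of its list, where 9 genes lay below 0 and 3 above, with a median of -0.44. The summed intensity of the 12 macrophage genes was 895 to 1268 in spleen and 1317 to 2180 in lymph node. No marker of NK cells (11), red cells (6) or platelets (6) was called by limma, with 2, 0 and 1 at an unadjusted p under 0.05. Over all genes 3.4% were called, and 19% had an unadjusted p under 0.05. The part of these markers and controls in the results was not tested.

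None of the 79 subunit genes differed between spleen and lymph node DCs past an adjusted p of 0.05 in limma, either as higher or as lower in spleen. Over all genes 3.4% passed, 2.03% higher and 1.37% lower. At an unadjusted p under 0.05 there were 6 of the 79 genes, or 7.59%, against 19% of all genes. The smallest adjusted p of any subunit gene was 0.161, for Ndufv2. Because these are bulk samples of sorted cells, fewer cells of a type and less RNA per cell cannot be told apart. A p that misses the threshold does not show equal levels, so the interval of each difference matters. For 68 of the 79 genes, or 86.1%, the 95% interval in limma lay within 1 log2 unit of 0, that is, within a 2-fold change in either direction. The same held for 74.1% of all genes and for 68.9% of genes above the median level. The 11 others, among them Atp5g1, Cox7c, Uqcrq and Uqcr11, had intervals that reached past 2-fold on at least 1 side.

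Across the 79 genes the differences ran from -0.91 for Atp5g1 to 0.45 for Ndufv2, with 36 above 0, 43 below 0 and a median of -0.042, which turned to 0.064 without lymph node array 2. The median over all genes was -0.0053. The median size of the difference, without its sign, was 0.22 for the subunit genes and 0.23 for all genes, and 0.28 for genes above the median level. By complex the medians were close to 0 for complexes I and V (16 genes above and 18 below 0, and 9 above and 8 below), 0.087 for complex II, -0.19 for complex III and -0.18 for complex IV. Beside these, the spread between arrays, taken as the pooled SD within groups of each array's median deviation from the gene means, was 0.12 for complex I, 0.073 for complex II, 0.21 for complex III, 0.12 for complex IV and 0.15 for complex V. The medians of complexes II and IV were larger than this spread and the others smaller, with no test made. The spread is that of single arrays, while the differences are between means of 3 arrays. This sorting therefore does not rank the complexes. Leaving out 1 array moved the median of complex II from 0.0045 (without spleen array 1) to 0.17 (without spleen array 3). That of complex III moved to -0.089 without spleen array 1, -0.12 without lymph node array 2, -0.31 without spleen array 2 and -0.37 without lymph node array 3. That of complex IV stayed between -0.23 and -0.14. With the poly-A control level as a covariate the medians of complexes III and IV turned to 0.043 and 0.12, while that of complex I was also above 0 with median centring, at 0.0092.

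**Figure D1:**
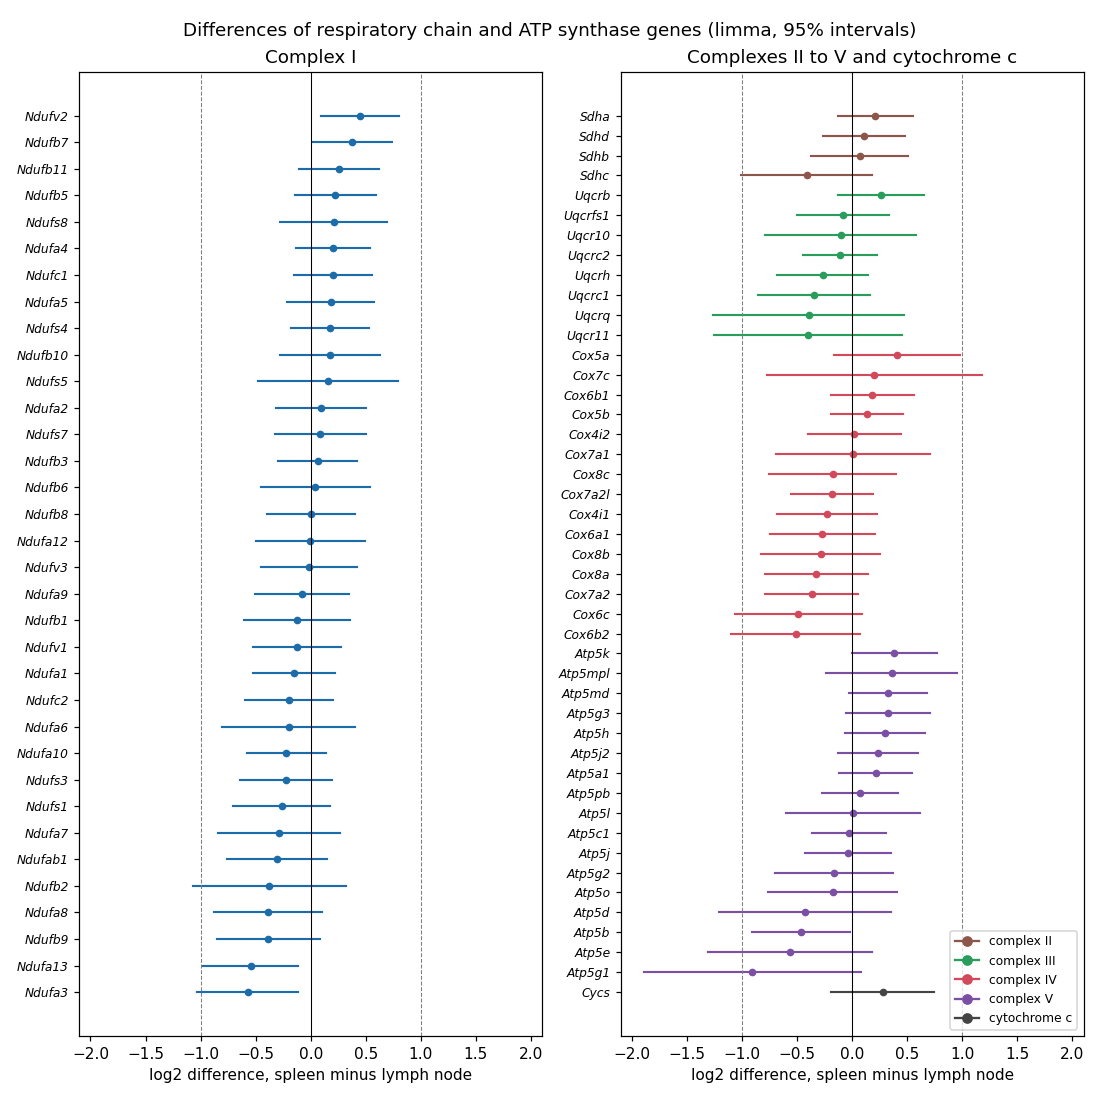
Log2 difference of each of the 79 genes, spleen minus lymph node (point), with its 95% interval from limma (line). Complex I is on the left, the other complexes and cytochrome c on the right, each complex sorted by its difference, and dashed lines mark a 2-fold change. Most intervals cross 0, and that of Atp5g1 reaches farthest, to -1.89.

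Groups that did not overlap were about as common as over all genes, and less common than over genes above the median level. In 19 of the 79 genes, or 24.1%, every spleen array lay on the same side of every lymph node array, against 24.5% of all genes and 33.5% of genes above the median level. By direction, 15 genes, or 19%, were higher in all spleen arrays and 4 genes, or 5.06%, lower. For all genes these shares were 11.8% and 12.7%, and for genes above the median level, where 72 of the 79 lie, 15.6% and 17.9%. Complex V contributed 6 of the 15 and complex I also 6. None of these 19 genes passed the adjusted test, so most are given below by their values. Also among them are Ndufa10, lower in spleen by a difference of -0.22, and Ndufc1 and Ndufs4, higher by 0.20 and 0.18. Each of these has probe sets that did not all share a sign. Ndufb11 and Atp5j2 are among the higher ones as well.

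Complex I is the largest of the complexes. Some of its core subunits carry the flavin and iron-sulphur clusters, and many accessory subunits surround the core. Ndufv2, a core subunit that holds an iron-sulphur cluster in the NADH-oxidising tip, read 8.13, 8.08 and 8.18 in the lymph node arrays 1 to 3 and 8.59, 8.44 and 8.71 in the spleen arrays 1 to 3. The groups did not overlap, and the spleen values were the higher ones. The difference was 0.45 ± 0.15 (SE, adjusted p = 0.161), with an interval from 0.097 to 0.81. It is the value of the brightest of 3 probe sets, which did not all have the same sign. Of the 6 core genes measured, Ndufv1, Ndufv2, Ndufs1, Ndufs3, Ndufs7 and Ndufs8, 3 lay above 0 and 3 below, with a median of -0.018. Ndufs1, the largest core subunit, was at 7.14 ± 0.13 in spleen and 7.41 ± 0.28 in lymph node (SD, n = 3 each). Ndufv1, which binds the flavin that accepts electrons from NADH, was at 8.17 ± 0.14 in spleen and 8.30 ± 0.21 in lymph node (SD, n = 3 each), a difference within the spread between arrays.

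Among the 28 accessory genes of complex I, 13 lay above 0 and 15 below. Ndufa13, also called GRIM-19, read 10.46, 10.75 and 10.28 in lymph node and 9.78, 9.96 and 10.12 in spleen. Every spleen array was below every lymph node array, and the difference was -0.55 ± 0.19 (SE, adjusted p = 0.163). Ndufa3, a small membrane subunit, read 9.07, 9.16 and 8.63 in lymph node and 8.27, 8.58 and 8.30 in spleen, again without overlap. Its difference of -0.57 ± 0.20 (SE, adjusted p = 0.164) was the lowest of complex I, and both of its probe sets had that sign. Ndufb7, a subunit on the intermembrane side, lay the other way, at 11.62, 11.84 and 11.66 in lymph node and 12.16, 11.99 and 12.10 in spleen (difference 0.38 ± 0.15 SE, adjusted p = 0.235). Its 2 probe sets did not share that sign. Ndufb11 (0.26 ± 0.16 SE) and Ndufb5 (0.22 ± 0.16 SE) followed on the same side, and Ndufb9 (-0.39 ± 0.20 SE) and Ndufa8 (-0.38 ± 0.21 SE) on the other. The probe sets of Ndufb11, and those of Ndufb5, did not all share a sign. Ndufa4, named as a complex I subunit but known to sit in complex IV, was at 10.18 ± 0.07 in spleen and 9.97 ± 0.05 in lymph node (SD, n = 3 each). Its groups did not overlap, and the difference of 0.20 had an interval from -0.14 to 0.54 (adjusted p = 0.524).

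Complex II, succinate dehydrogenase, is the member of the chain that is also an enzyme of the tricarboxylic acid cycle, and all 4 of its subunits are nuclear. Sdha, the flavoprotein that oxidises succinate, read 10.03, 10.04 and 10.18 in lymph node and 10.31, 10.36 and 10.21 in spleen. These groups did not overlap, but the difference of 0.21 ± 0.15 (SE) did not pass (adjusted p = 0.511), and its other probe set had the opposite sign. Sdhb, the iron-sulphur subunit, differed by 0.068 ± 0.19 (SE) and Sdhd, a membrane anchor, by 0.11 ± 0.16 (SE). Sdhc, the other anchor, read 8.11, 8.29 and 8.09 in lymph node and 7.19, 7.90 and 8.17 in spleen. Spleen arrays 1 and 2 lay below all lymph node arrays and array 3 among them, and the difference of -0.41 ± 0.26 (SE) had an adjusted p of 0.446.

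In complex III, 7 of 8 genes lay below 0, and Uqcrb, a small subunit near the ubiquinone site, was the exception. Uqcrb read 10.35, 10.35 and 10.40 in lymph node and 10.87, 10.47 and 10.54 in spleen, with no overlap (difference 0.26 ± 0.17 SE, adjusted p = 0.458). Uqcrfs1, the Rieske iron-sulphur protein, differed by -0.085 ± 0.18 (SE), and the core proteins Uqcrc1 and Uqcrc2 by -0.35 ± 0.22 and -0.11 ± 0.14 (SE). In all 7 the groups overlapped. Uqcrq shows that spread, at 7.24, 7.55 and 6.30 in lymph node and 6.03, 6.97 and 6.90 in spleen. Lymph node array 3 and spleen array 1 were low for this gene, and the groups overlapped (difference -0.39 ± 0.37 SE). The probe sets of Uqcrq did not all share a sign, and those above 0 (0.10 and 0.035) read under 4 in every array. Uqcr11 (-0.40 ± 0.37 SE) and Uqcrh (-0.27 ± 0.18 SE), a hinge protein by the cytochrome c site, also overlapped. Cyc1, cytochrome c1, which hands electrons to cytochrome c and is not among the 8, was at 7.31 ± 0.20 in spleen and 7.65 ± 0.19 in lymph node (SD, n = 3 each), a difference of -0.33 with overlapping groups (adjusted p = 0.378). Cytochrome c itself, the mobile carrier encoded by Cycs, read 9.96, 10.09 and 9.85 in lymph node and 10.40, 10.46 and 9.87 in spleen. Its spleen array 3 fell within the lymph node range, and the difference was 0.28 ± 0.20 (SE, adjusted p = 0.527). The probe sets of Cycs did not all share a sign.

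Complex IV, cytochrome c oxidase, has subunits that exist as paired isoforms, some used in most tissues and others in muscle, heart, lung or testis. The widely used forms Cox4i1, Cox6a1, Cox6b1, Cox7a2 and Cox8a had differences of -0.23, -0.27, 0.18, -0.37 and -0.32, with adjusted p from 0.328 to 0.614. Their restricted partners Cox4i2, Cox7a1 and Cox8b stood at 3.18 ± 0.23, 2.71 ± 0.45 and 3.67 ± 0.37 in spleen and 3.16 ± 0.16, 2.70 ± 0.45 and 3.96 ± 0.26 in lymph node (SD, n = 3 each). These 3 genes had both means under 4, near the bottom of the scale, where a control transcript gave 1.63 to 1.85. For Cox4i2 and Cox7a1 the differences of 0.020 and 0.0071 turned below 0 with a repeated quantile normalization. Cox6b2, a testis isoform, was at 4.21 ± 0.41 in spleen and 4.73 ± 0.30 in lymph node, and Cox8c at 3.96 ± 0.48 and 4.14 ± 0.09 (SD, n = 3 each). Both genes had overlapping groups.

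Of the other complex IV genes, Cox5a, a matrix-side subunit, had the highest difference. It read 9.41, 9.47 and 8.63 in lymph node and 9.63, 9.68 and 9.42 in spleen, so that lymph node array 3 was the low one (difference 0.41 ± 0.25 SE, adjusted p = 0.435). All 3 of its probe sets had that sign. Cox6c read 11.21, 11.27 and 10.92 in lymph node and 10.13, 10.99 and 10.82 in spleen, with the spleen array 1 lowest (difference -0.49 ± 0.25 SE, adjusted p = 0.345). Cox5b, by contrast, had the narrowest spread of the 79 genes, at 11.84 ± 0.017 in spleen and 11.70 ± 0.0061 in lymph node (SD, n = 3 each), and a difference of 0.14 with an interval from -0.19 to 0.46. Its probe sets did not all share a sign, and the one below 0 (-0.21) read under 4 in every array. Cox7a2l, which helps complexes III and IV join into supercomplexes, differed by -0.18 ± 0.16 (SE), and all 3 of its probe sets had that sign. Cox7c read 4.54, 5.03 and 4.83 in lymph node and 5.60, 5.47 and 3.94 in spleen, and the interval of its difference ran from -0.78 to 1.18.

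The ATP synthase has a catalytic F1 head, a ring of c subunits that turns in the membrane, a peripheral stalk that holds the head still and small membrane subunits. In the F1 head 4 of 5 genes lay below 0, or 3 of 5 with a repeated quantile normalization, and in the membrane accessory group 5 of 5 above 0, or 4 of 5 with that normalization. The groups were drawn from textbook roles after the values had been seen, and their medians were -0.43 and 0.32. Atp5b, the catalytic beta subunit, read 10.53, 10.60 and 10.49 in lymph node and 9.78, 10.40 and 10.04 in spleen. The spleen arrays were all lower and varied more, and the difference was -0.47 ± 0.19 (SE, adjusted p = 0.244). Atp5a1, the alpha subunit that alternates with beta in the head, lay the other way, at 11.98 ± 0.03 in spleen and 11.76 ± 0.05 in lymph node (SD, n = 3 each; difference 0.22 ± 0.14 SE, adjusted p = 0.480). Its 3 probe sets did not share a sign. Atp5c1, the central gamma shaft, was at 10.53 ± 0.07 in spleen and 10.56 ± 0.05 in lymph node (SD, n = 3 each), a difference of -0.029 with an interval from -0.37 to 0.31. Atp5d (-0.43 ± 0.34 SE) and Atp5e (-0.56 ± 0.32 SE) had overlapping groups.

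Atp5g1, Atp5g2 and Atp5g3 encode the c subunit in 3 copies that differ in their import peptides and yield the same mature protein. Atp5g1 read 6.91, 7.51 and 6.16 in lymph node and 5.16, 6.33 and 6.38 in spleen. This was the lowest difference of all 79 genes, at -0.91 ± 0.42 (SE, adjusted p = 0.303), and its groups still overlapped. Atp5g3 read 9.02, 9.10 and 9.06 in lymph node and 9.21, 9.61 and 9.33 in spleen, higher in every spleen array (0.32 ± 0.17 SE, adjusted p = 0.349). Atp5g2 lay between them with -0.17 ± 0.23 (SE, adjusted p = 0.767). In the peripheral stalk, Atp5h read 11.30, 11.26 and 11.36 in lymph node and 11.78, 11.48 and 11.55 in spleen (difference 0.30 ± 0.16 SE, adjusted p = 0.366), and its 2 probe sets had opposite signs. The stalk genes Atp5pb, Atp5j and Atp5o had differences of 0.068, -0.042 and -0.18, and the probe sets of Atp5o had opposite signs. Of the membrane accessory genes, Atp5k, the e subunit that helps ATP synthases pair, read 10.22, 10.43 and 10.18 in lymph node and 10.70, 10.49 and 10.80 in spleen. These groups did not overlap (0.38 ± 0.16 SE, adjusted p = 0.260), and all 3 probe sets had the same sign. Atp5md, known as DAPIT, also did not overlap, at 10.09 ± 0.09 in spleen and 9.76 ± 0.12 in lymph node (SD, n = 3 each; difference 0.32, adjusted p = 0.310). Atp5j2 (0.23), Atp5mpl (0.36) and Atp5l (0.0042) completed the group.

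**Figure D2:**
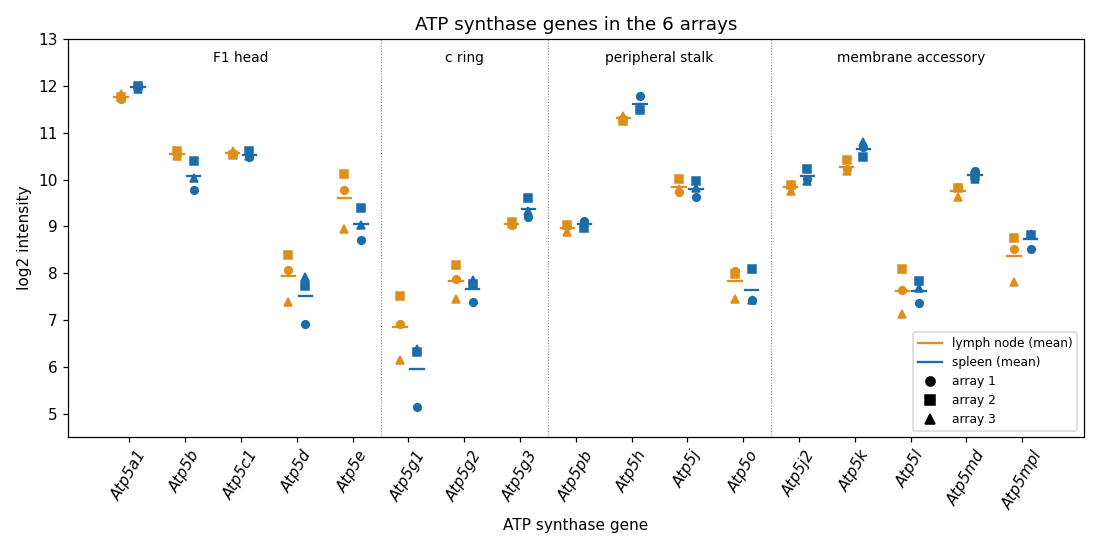
Log2 intensity of the 17 ATP synthase genes in each array (circle, square and triangle for arrays 1, 2 and 3), lymph node left and spleen right of each gene's tick, with a bar at each group mean. Atp5g1 has the widest spread, from 5.16 to 7.51, and levels of different genes are not comparable because each comes from its own probe set.

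The subunit genes varied together from array to array within the lymph node group, a pattern noticed in the values and given with no test. Lymph node array 2 was the highest of its group for 62 of the 79 genes, or 78.5%, against 30.7% of all genes and 34.7% of genes above the median level. Array 3 of that group was the lowest for 53, or 67.1%, against 36% and 41.6%. Typical deviations were small, with a median of 0.16 above the group mean in array 2 and 0.13 below it in array 3, while the medians over all genes ran from -0.0088 to 0.0038 in the lymph node arrays. Among the accessory genes of complex I array 2 was highest for 27 of 28, the exception being Ndufs4, and among the core genes for 3 of 6. The count was 12 of 15 in complex IV, 11 of 17 in complex V, 6 of 8 in complex III and 2 of 4 in complex II. In the spleen group, array 1 was the lowest for 40 genes, or 50.6%, against 33.6% of all genes. With settings chosen after seeing the data, the count of 62 was the same with median centring, a repeated quantile normalization, the mean of all probe sets and an offset of 16. Under the same settings lymph node array 3 was lowest for 50 to 59 genes and spleen array 1 for 36 to 40.

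**Figure D3:**
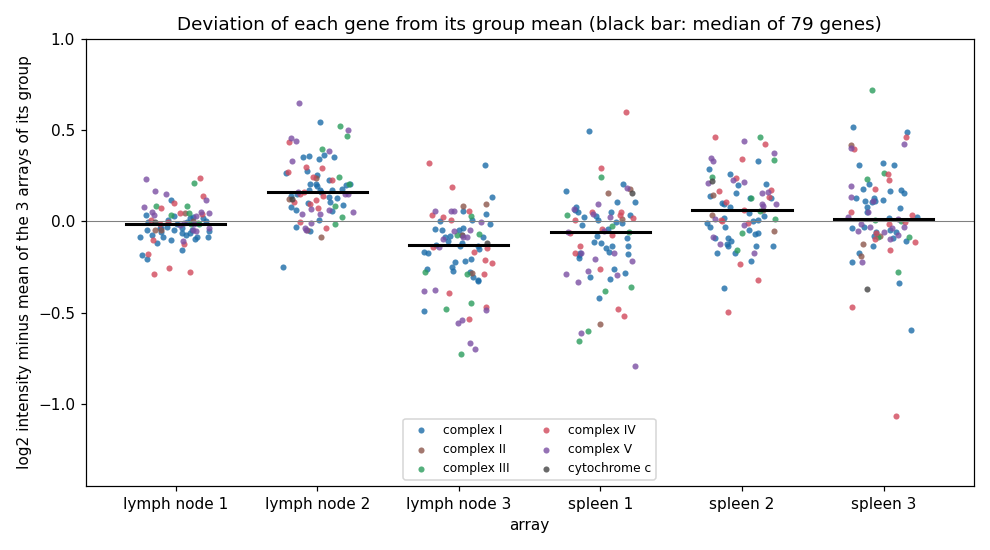
Log2 intensity of each of the 79 genes minus the mean of the 3 arrays of its group, by array, coloured by complex, with a black bar at the median. The bar lies above 0 in lymph node array 2 and below 0 in lymph node array 3.

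Other mitochondrial genes shared this array pattern to different degrees. Array 2 was the highest lymph node array for 58.1% of 74 mitochondrial ribosomal protein genes, 62.5% of 24 protein import genes and 51.5% of 33 assembly factors, but for 27.3% of 22 genes of the tricarboxylic acid cycle and pyruvate dehydrogenase. Array 3 was the lowest for 63.5%, 66.7%, 60.6% and 50% of the genes of these lists, in that order. That share was 67.1% for the subunit genes and 36% for all genes. Most marker lists moved the other way within the group, those of NK cells and macrophages the most. The 11 NK cell markers had median deviations of -0.31, -0.51 and 0.73 in lymph node arrays 1 to 3, and the 12 macrophage markers -0.19, -0.50 and 0.64. The same signs in arrays 2 and 3, at smaller sizes, held for markers of T, B and plasma cells, monocytes, red cells and platelets. They also held for plasmacytoid and migratory DC markers. Conventional DC markers (-0.0023 and -0.020 in arrays 2 and 3) and neutrophil markers (0.24 and 0.098) were the exceptions. Summed marker intensity in the lymph node arrays was 522 to 1142 for NK cells and 1317 to 2180 for macrophages, and 688 to 2061 and 895 to 1268 in spleen. The 3′ over 5′ log2 difference of the Gapdh control was 2.60, 2.70 and 2.79 in lymph node and 3.44, 3.25 and 3.14 in spleen. Their part in the array pattern was not tested.

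Genes around the pathway were counted from lists of named genes, against the 3.4% of all genes past the adjusted threshold given above. In 3 lists 1 gene passed, of 11, 24 and 26 genes. In 5 other lists, of 33, 22, 18, 18 and 74 genes, none passed. Gsr, the glutathione reductase, was higher in spleen by 0.92 ± 0.16 (SE, adjusted p = 0.031) and was the only gene of 11 antioxidant enzymes to pass. Timm17b, a channel subunit of the inner membrane import machinery, was lower by 1.30, at 6.03 ± 0.36 in spleen and 7.33 ± 0.27 in lymph node (SD, n = 3 each, adjusted p = 0.033), and was the only call among 24 import genes. Esrrg, an orphan nuclear receptor that activates respiratory genes in muscle, was lower, at 2.88 ± 0.20 in spleen and 4.41 ± 0.23 in lymph node (SD, n = 3 each, adjusted p = 0.00938), values near the bottom of the scale. It was the only call among 26 regulators of mitochondrial biogenesis, where its relative Esrra differed by -0.86 ± 0.20 (SE, adjusted p = 0.060) and the coactivator Ppargc1b by 0.91 ± 0.25 (SE, adjusted p = 0.093). No call was made among 33 assembly factors (median -0.056), 22 genes of the tricarboxylic acid cycle and pyruvate dehydrogenase (-0.15) or 18 carriers and channels (0.13). The same held for 18 genes of electron entry to ubiquinone and ubiquinone synthesis, with Cyc1 and Hccs (-0.14), and 74 mitochondrial ribosomal proteins (-0.11). At an unadjusted p under 0.05 these 5 lists had 7, 4, 3, 3 and 10 genes. These were 21.2%, 18.2%, 16.7%, 16.7% and 13.5%, against 19% of all genes. The lists of regulators, import genes and antioxidant enzymes had 8, 6 and 4, or 30.8%, 25% and 36.4%. The assembly factors Ndufaf3 and Cmc2 came nearest, with -0.74 ± 0.17 and 0.90 ± 0.21 (SE, adjusted p = 0.059 and 0.060). ND5, the mitochondrially encoded complex I subunit that the array annotation names, differed by -0.20 ± 0.16 (SE, adjusted p = 0.570).

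Nuclear genes of the respiratory chain are textbook targets of NRF1, a transcription factor that binds a GC-rich palindrome near start sites. RefSeq promoters, 250 bases before to 50 bases after a start site on GRCm38.p6, were found for 66 of the 79 genes, 71 promoters in all. Letters of the NRF1 motif, a palindrome with 1 free base searched on either strand, occurred in 15 of the 71, or 21.1%, and in 4.6% of all 32851 promoters of the same length. The 14 genes concerned had a median difference of 0.038, from -0.38 to 0.38, and the 52 genes without these letters -0.029, from -0.91 to 0.45. The letters AAGATGGC, on either strand, of the YY1 motif occurred in 12.7% against 2.75%, and TATAAA in 11.3% against 13.6%. A match is a description of letters, not of binding. Promoters with the full palindrome before the start site are printed as 60-base stretches, because they show what the shared letters look like in genes of complexes IV and V. Capitals mark the motif in its fully palindromic form, which reads the same on both strands. The stretch of Atp5g2 is chr15:102671055-102671114 on the minus strand, that of Atp5k chr5:108434415-108434474 on the minus strand and that of Cox6a1 chr5:115349086-115349145 on the minus strand.
Atp5g2: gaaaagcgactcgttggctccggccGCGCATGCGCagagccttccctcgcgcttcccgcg
Atp5k: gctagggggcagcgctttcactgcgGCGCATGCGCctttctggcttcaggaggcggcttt
Cox6a1: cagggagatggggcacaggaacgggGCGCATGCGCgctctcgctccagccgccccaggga
The palindrome begins 42, 50 and 162 bases before the start site of Atp5g2, Atp5k and Cox6a1. Their differences of -0.17, 0.38 and -0.27 did not pass the test.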

How the data were processed

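Total RNA of sorted DCs was extracted with 20 ng of carrier RNA, kept where its integrity number was above 8.4, and amplified from 2 ng, per the labels' protocols. The deposited intensity values are probe set summaries on a linear scale. RMA and limma are named in the submitters' processing notes, without versions. The intensities were transformed to log2. With controls counted, 20393 probe sets had 1 gene symbol, 691 several and 1606 none, and the 64 controls were left out. For each of 12394 genes the brightest 1-symbol probe set, by its mean across the 6 arrays, was used. Of the 79 subunit genes, 45 had several probe sets, with the same sign in all of them for 27, and all 79 matched a RefSeq gene of GRCm38.p6 by Entrez identifier.

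Groups came from the sample titles. The groups were compared by limma 3.58.1 under R 4.3.3, using lmFit and eBayes. Its p-values are two-sided and were adjusted by Benjamini and Hochberg's method across all genes, with a threshold of 0.05. Intervals are limma's 95% intervals, not adjusted. No filter on level was applied, and 72 of the 79 genes lay above the median level. The members and lists were chosen with earlier results of these data known. Named genes are those with the smallest p in each direction in each complex (up to 4), fixed isoforms, and up to 3 calls or 2 genes per other list; others given by value were chosen after their values were seen. Alternatives were scaling, filtering, variance models, weights per array, the replicate number as a block, leaving out single arrays, other probe set choices, an offset of 16, and the poly-A or plasmacytoid DC marker level as a covariate. The functions were tested on simulated data. The number of arrays limits the precision.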

Additional observations from a re-analysis of the deposited data

How the results depend on the processing

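The count of 0 subunit genes past the threshold, in either direction, held in all 17 alternatives. The smallest adjusted p of a subunit gene lay between 0.0639 (offset of 16) and 0.880 (poly-A covariate), and 1 to 15 genes had an unadjusted p under 0.05. With the replicate block 0 subunit genes and 518 of all genes passed, and 5 subunit genes had an unadjusted p under 0.05. Same-numbered arrays did not pair throughout, with correlations of their deviations of 0.022, 0.24 and 0.16 over all genes. The median over the 79 genes lay between -0.12 and 0.064 with 1 array left out and was above 0 without lymph node array 2, as it was with the poly-A (0.082) and plasmacytoid DC marker (0.059) covariates. With 1 array left out the median of complex I ran from -0.12 to 0.11 (above 0 without lymph node array 2), of complex II from 0.0045 to 0.17, of complex V from -0.070 to 0.095 and of cytochrome c from 0.17 (without spleen array 2) to 0.46 (without spleen array 3). The poly-A covariate moved complex III to 0.043, IV to 0.12, V to 0.18 and cytochrome c to 0.70. The plasmacytoid DC marker covariate moved complex II to 0.27, V to 0.22 and cytochrome c to 0.80. Complex II was at 0.0016 without probe sets suffixed x_at or s_at. Over all genes the count of 421 was 764 with array weights, 0 with the poly-A level and 45 with the plasmacytoid DC marker level, and 47 to 475 with 1 array left out: 56 without lymph node array 1, 47 without lymph node array 2 and 130 without spleen array 1. The cause of these changes was not tested. Both covariates leave 3 residual degrees of freedom, and both levels separate the groups, so covariate and group can hardly be told apart. Of 43 named subunit genes, 13 changed sign with the poly-A covariate and 7 in some other alternative, none of them past the threshold in either fit.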

Other observations

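Probe sets that carry several symbols were left out of the comparison but add subunits that have no probe set of their own here. In limma over all 22626 non-control probe sets, the probe set of Ndufs6 and Ndufs6b was at 8.58 ± 0.09 in spleen and 8.62 ± 0.17 in lymph node (SD, n = 3 each, adjusted p = 0.925). That of Ndufa11 and Ndufa11b was at 6.15 ± 0.38 and 6.14 ± 0.29 (SD, n = 3 each, adjusted p = 0.986). The brighter of the pair of probe sets for Ndufb4, Ndufb4b and Ndufb4c differed by 0.32 (adjusted p = 0.343), and the other by 0.056 (adjusted p = 0.899). Among all 152 probe sets named for the 79 genes alone, 0 passed an adjusted p of 0.05 in limma at the level of probe sets.

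Cox6a2, the muscle isoform that the symbol rule leaves out and that is known to be expressed in plasmacytoid DCs, read 6.23, 6.21 and 6.71 in lymph node and 6.80, 6.75 and 8.74 in spleen. All spleen arrays were above all lymph node arrays, array 3 by the most. Spleen array 3 also had the highest median deviation of the plasmacytoid DC markers, 0.97. Cox6a2 is itself on that marker list, so this match is not independent. The difference of 1.05 ± 0.50 (SE) did not pass in limma (adjusted p = 0.317).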
